A study of Mus musculus with 4 samples.

Results

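Microglia, the resident macrophages of the brain, were labelled wild type (WT) or Bid-/- and given lipopolysaccharide (LPS) for 3 h, and the comparison described here is the difference between the array of LPS-treated Bid-/- cells and the array of LPS-treated WT cells. A gene belonged to the comparison when the platform annotation gave its probe set a single gene symbol, which 19938 genes met through 21789 of the array's 28944 probe sets. Of these, 11044 genes reached a floor of 4.26 on at least one of the 2 LPS arrays and were compared, and 8894 did not. To set this floor, each probe set was averaged over the 4 arrays of the series and the median of the averages was taken. The other 2 arrays hold untreated cells of each genotype. Every group has 1 array, without replication by the design text, so no difference below has a replicate check and none is given a p-value. WT cells carry the strain label C57Bl. The sources used here do not give the strain of the cells labelled Bid-/-, the age and sex of the animals, the number of cultures, the part of the gene that was deleted or where the Bid probes lie against it. The labels name the cells as microglial and give no further detail of how they were obtained.

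Bid belongs to the BH3-only group within the Bcl-2 family. In its best known role, caspase-8 cleaves it after death receptor signalling, and the truncated form acts at the mitochondrial outer membrane on Bax and Bak. LPS is recognised by Toll-like receptor 4, which drives cytokine and chemokine genes through NF-kB and drives type I interferon through IRF3. Interferon in turn drives a large set of antiviral, interferon-stimulated genes.

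Values are log2 expression, and a difference is the Bid-/- LPS value minus the WT LPS value. The 2 untreated arrays share no array with this comparison, so their difference, Bid-/- minus WT without LPS, is given beside it. All levels are those of the deposited normalised values. In a mixed RNA sample, fewer cells of a type and less RNA per cell cannot be told apart.

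Bid itself goes against its label. With LPS it read 5.02 in WT cells against 5.97 in those labelled Bid-/-, 0.95 higher where a loss was labelled, and without LPS it read 5.69 against 5.53. Because of this, the array is called the array labelled Bid-/- below, and every direction between genotypes rests on the labels. Other features differed along the same labels. Uty, Eif2s3y and Kdm5d, genes on the Y chromosome, were higher on the array labelled Bid-/- by 1.61, 0.95 and 0.92, and by 0.91, 1.00 and 0.63 without LPS. Xist, the RNA that silences one X chromosome in female cells, read 8.05, 8.24, 7.73 and 8.27 on WT control, WT LPS, control labelled Bid-/- and LPS labelled Bid-/-, a difference of 0.03 with LPS and -0.32 without. Nnt, which carries a deletion in some C57BL/6 substrains, was lower by 0.79 with LPS and by 0.81 without. Cyfip2 and Wdfy1, which also vary between such substrains, were at 0.28 and 0.15 with LPS and 0.17 and 0.50 without, and Wdfy1 with LPS was at -0.0574 with loess trends of the difference on mean intensity and on gene span taken out. Sex, background, culture and the Bid allele cannot be told apart with 1 array a side. Bid lies on chromosome 6, and of the 50 protein-coding genes on either side of it, 51 of 100 were compared. Their median difference was 0.05. At least 1.5-fold, 3 (5.88%) were higher than in WT and 4 (7.84%) lower, near the 4.69% and 6.07% of all genes compared. At least 2-fold, 2 of the 51 were higher, Plxnd1 and Depp1, and 1 was lower, Clec4a2. Of all genes, 0.326% and 0.489% were that far apart. Without LPS, Plxnd1, Depp1 and Clec4a2 differed by 2.25, 1.52 and -0.86. Whether their place near Bid has a part in this was not tested.

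Over all genes the difference was centred near 0, which in normalised values does not show how close the arrays were. The median difference was 0.01 with LPS and 0.01 without, and its SD over genes was 0.363 with LPS and 0.21 without. With LPS, 5625 genes read higher under the Bid-/- label, 5274 read lower and 145 were equal. At least 2-fold, 36 genes (0.326%) were higher and 54 genes (0.489%) were lower. At least 1.5-fold, 518 genes (4.69%) were higher and 670 genes (6.07%) were lower. The values just inside the threshold were -1.0 for Atp5k, Itgb8 and Mrpl36, and 1.02 for Tasor, Gbp7 and Tmem140. Just outside it stood Id3, S100a4 and Snora16a at -0.99, Tshz1 at 0.98, and Zfp407 and Iqgap2 at 0.99.

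**Figure D1:**
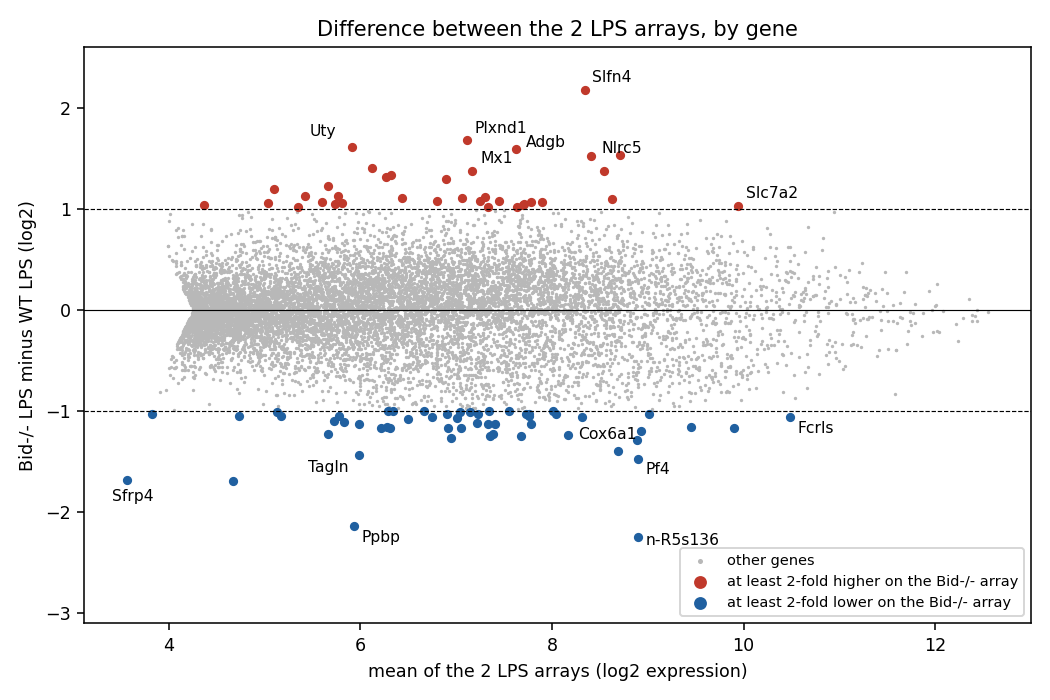
Each point is 1 of the 11044 genes compared. The horizontal axis is the mean of the 2 LPS arrays in log2 expression and the vertical axis is the array labelled Bid-/- minus the WT array, in log2; dashed lines mark a 2-fold difference. The 36 genes at least 2-fold higher are red and the 54 at least 2-fold lower are blue, over nearly the whole range of expression.

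The 36 higher genes were mostly higher on the untreated pair too. Without LPS, 33 of them lay above 0, with a median difference of 0.41, and 12 were also 1.5-fold or more apart and 4 of the 36 were 2-fold or more apart, in the same direction; of all genes compared, 1.38% and 0.353% were that much higher on the untreated pair. The 54 lower genes were less uniform: 40 lay below 0 without LPS and 13 above, with a median of -0.15, and 6 were lower there by 1.5-fold or more and 2 by 2-fold or more, against 0.398% and 0.0724% of all genes. Of the genes compared, 702 were at the floor on only one of the LPS arrays; these included 1 of the 36 and 4 of the 54.

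Slfn4, a member of the interferon-responsive schlafen family of myeloid cells, had the highest difference. It read 6.89 on the WT control array, 7.25 on the WT LPS array, 8.69 on the control array labelled Bid-/- and 9.43 on the LPS array so labelled, 2.18 higher with LPS and 1.80 higher without. Plxnd1, a semaphorin receptor, read 6.27 in WT with LPS and 7.95 on the array labelled Bid-/-, 1.68 higher, and 2.25 higher without LPS. Both genes were apart on the untreated arrays too. Depp1, which FoxO factors induce, stood 1.41 higher with LPS and 1.52 higher without. In the next 3 genes the difference was larger with LPS than without. Adgb read 6.83 and 8.42 on the LPS arrays, 1.59 higher against 0.74 without LPS. The transcript 6330407A03Rik read 7.94 and 9.47, 1.53 higher against -0.18. Atm, the kinase of the DNA double-strand break response, read 5.05 and 6.28, 1.23 higher against 0.27. Nlrc5, the transactivator of MHC class I genes, read 7.65 and 9.17, 1.52 higher against 0.34, but it has 19 probe sets and their mean difference was 0.90. Ttr, which carries thyroid hormone, was 1.38 higher, Gm4951 1.34 higher, Capns2 1.30 higher and H2-M2 1.20 higher. Gm13570 and Phxr4, tied at the end of the 15 genes, were 1.13 higher and had been 0.39 and 0.43 lower without LPS.

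Of the 15 lowest genes, 4 were small RNA genes. These were n-R5s136, a gene of 5S ribosomal RNA (10.02 in WT and 7.77, -2.25), Rnu3a, a U3 small nucleolar RNA (5.52 and 3.83, -1.69), Vaultrc5, a vault RNA (7.58 and 6.31, -1.27), and Snord104 (8.00 and 6.77, -1.23). All 4 read higher on the WT LPS array than on the other arrays. The protein-coding genes began with Ppbp and Pf4, neighbouring chemokine genes of platelets and some macrophages. Ppbp read 6.54, 7.00, 5.28 and 4.86 in the order WT control, WT LPS, control labelled Bid-/- and LPS labelled Bid-/-, a difference of -2.14 with LPS and -1.26 without. Pf4 read 9.23, 9.63, 8.75 and 8.16, differences of -1.47 and -0.48. Both already separated the untreated arrays. Sfrp4, a secreted Wnt antagonist, read 4.41 in WT and 2.73, -1.68, and Tagln, an actin-binding protein of smooth muscle, read 6.70 and 5.27, -1.43. Wfdc17 (-1.39), Blvrb (-1.29), which reduces biliverdin, Clec4a2 (-1.25), a C-type lectin, and Ebpl (-1.25) followed. Cox6a1, a subunit of cytochrome c oxidase, was at -1.24, Tmem256 at -1.23 and Ifi27l2a, an interferon-induced gene, at -1.20. Ifi27l2a was at -0.23 without LPS. In all, the 54 lower genes held 6 small RNA genes, 6 subunits of oxidative phosphorylation and 2 mitochondrial ribosomal proteins, where 149, 73 and 74 of the 11044 genes compared were of these kinds. The class behind the counts of 6 and 149 leaves out vault RNA, so Vaultrc5 is not in it.

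Most of the antiviral genes that interferon induces read higher with LPS under the Bid-/- label. Of 31 genes compared, 23 were above 0 and 8 below, with a median difference of 0.39, where all genes had a median of 0.01. At least 1.5-fold, 7 of the 31 (22.6%) were higher and 0 lower, against 4.69% and 6.07% of all genes. Without LPS 30 of the 31 were above 0 with a median of 0.17, and 0 were at least 1.5-fold apart. Against the WT control array, the list median was -0.17 on the WT LPS array and 0.04 on the LPS array labelled Bid-/-. Measured the same way, it was 0.17 on the control array labelled Bid-/-. On this scale the median thus stood lower with LPS than without under both labels. Mx1, a dynamin-like GTPase that blocks influenza virus, read 8.23, 6.48, 8.68 and 7.86 in the same array order, 1.38 higher with LPS and 0.45 higher without. Mx1 was thus lower with LPS than without in both genotypes, by less on the arrays labelled Bid-/-. Mx2 was 1.07 higher, Oas2, which makes the activator of RNase L, 0.88, and Rsad2, the antiviral enzyme viperin, 0.71. Parp14, a mono-ADP-ribosyltransferase, read 9.56 and 10.22, and Eif2ak2, the RNA-activated kinase PKR, read 7.83 and 8.49, each 0.66 higher. Not all members went this way: Trex1, a DNA exonuclease, named after its values were seen, read 7.52 in WT and 6.97, -0.55.

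Other interferon-driven families did likewise. All 7 inducible GTPases compared were above 0 with a median of 0.73, 5 of them by 1.5-fold or more and 3 by 2-fold or more, against 4.69% and 0.326% of all genes. Iigp1, which acts on the vacuoles of intracellular parasites, read 7.19, 5.61, 8.07 and 6.93, 1.32 higher with LPS and 0.88 without. Gbp4 (5.88 and 6.99) was 1.11 higher and Gbp7 (7.13 and 8.15) 1.02 higher. Gbp9 and Gbp3 were 0.73 and 0.63 higher. Without LPS the median of this list was 0.67. Against the WT control array, the GTPase median was -0.58 on the WT LPS array and 0.39 on the LPS array labelled Bid-/-. The latter lay below the 0.67 of the untreated array with the same label. In the schlafen list 6 of 7 were above 0, with a median of 0.56, and 0.42 without LPS; Slfn1 was 1.10 higher and Slfn8 0.86 higher. The interferons, their receptors and factors, 17 genes compared, had a median of 0.13, with 13 above 0. Stat2, the interferon signal transducer, read 8.64 in WT and 9.60, 0.96 higher, against 0.31 without LPS. Jak2 was 0.62 higher and Tyk2, the kinase bound to the interferon receptor, 0.63. Ifnb1 did not reach the floor on either LPS array, at 4.24 and 3.83, and neither did Ifna4.

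**Figure D2:**
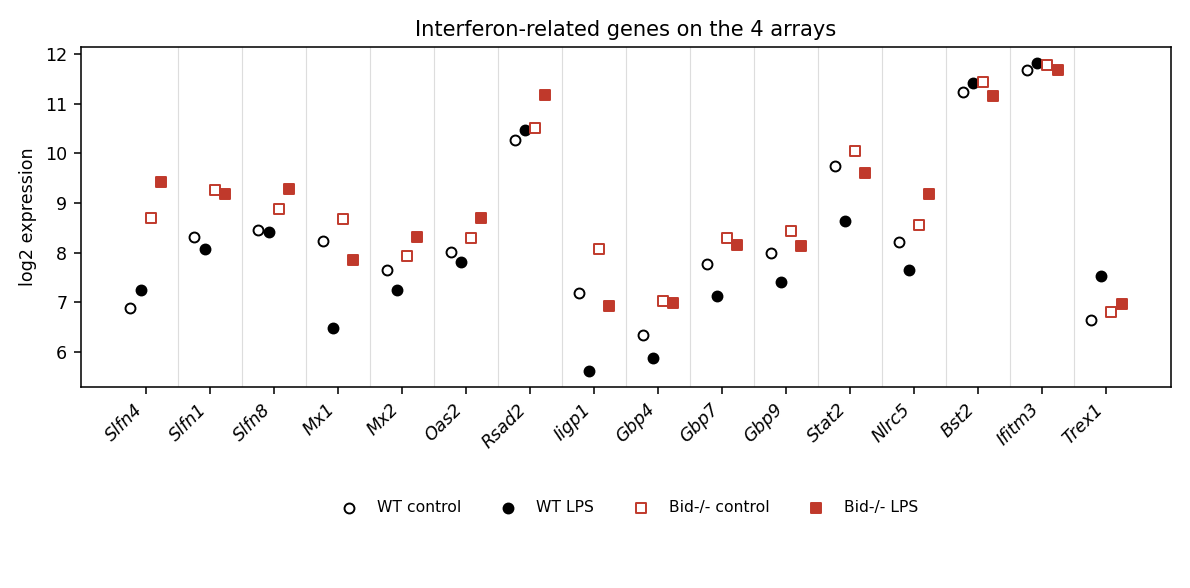
Log2 expression of 16 interferon-related genes on the 4 arrays. Open circles are the WT control, filled circles WT with LPS, open squares the control labelled Bid-/- and filled squares LPS labelled Bid-/-; there is 1 array a group and no error bar. For Mx1, Iigp1 and Stat2 the WT LPS point sits lowest of the 4, while Bst2, Ifitm3 and Trex1, shown after their values were seen, have the WT LPS point above the point labelled Bid-/- LPS.

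The interferon-stimulated response element of such promoters holds a repeat of GAAA, and promoters were searched for GAAA, any 2 bases and GAAA again, on both strands (the other strand reads TTTC, any 2 bases and TTTC), over the 250 bases before the start, from RefSeq promoters of GRCm38.p6. It was found in 936 of 27025 genes (3.46%). Of the genes compared that were in this table, 299 of 8841 (3.38%) held it. At least 1.5-fold higher were 22 of these 299 (7.36%) and 389 of the other 8542 (4.55%). Of the 26 antiviral and GTPase genes with a promoter in the table, 11 (42.3%) held it, with a median difference of 0.51 against 0.39 for those without. In the schlafen family, 3 of 7 held it, with a median of 0.56 against 0.82 for those without. A match is a description of letters, not a binding site. For the 4 genes of these lists with the highest difference among those that held it, the window around the motif is printed to show where the letters lie, with the motif in capitals and up to 30 bases on either side; the Gbp3 window holds overlapping matches.
Gbp7, chr3:142530253-142530322, plus strand, 53 bases before the start: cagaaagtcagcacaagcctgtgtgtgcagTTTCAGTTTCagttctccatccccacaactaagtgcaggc
Rsad2, chr12:26456533-26456602, minus strand, 120 bases before the start: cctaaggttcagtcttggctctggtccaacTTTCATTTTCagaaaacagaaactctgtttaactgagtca
Gbp3, chr3:142559969-142560043, plus strand, 45 bases before the start: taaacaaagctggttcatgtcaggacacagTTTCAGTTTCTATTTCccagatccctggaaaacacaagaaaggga
Trim30a, chr7:104465194-104465259, minus strand, 36 bases before the start: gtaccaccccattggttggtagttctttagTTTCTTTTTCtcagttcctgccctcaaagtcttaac

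These genes differed by 1.02, 0.71, 0.63 and 0.55 in the order shown. In all 4 promoters the motif lies in the reverse orientation.

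Of the genes for MHC class I presentation, 16 were compared and they split evenly, with 8 above and 8 below 0 and a median of 0.03. Nlrc5 was highest. H2-Q4, a class Ib molecule, was 0.88 higher and Tap1, which pumps peptides into the endoplasmic reticulum, 0.68 higher. The immunoproteasome subunits Psmb10 and Psmb8 were at -0.65 and -0.56. In the class II and costimulation list, 9 genes had a median of -0.12, and Cd274, the checkpoint ligand PD-L1, read 8.38, 8.03, 8.94 and 9.00, 0.97 higher with LPS and 0.56 without.

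The lists of cytokine, chemokine and immediate early genes did not follow the interferon lists. For 19 cytokines the median was -0.10 (12 below 0), and it turned to 0.0954 once the trends on intensity and on gene span had been taken out. Without LPS it was 0.34, with 14 above 0 and 5 below. Csf3 and Csf2, which encode the granulocyte and granulocyte-macrophage growth factors, were below the floor without LPS and read 7.51 and 7.53 in WT with LPS but 6.58 and 6.66 on the array labelled Bid-/-, differences of -0.93 and -0.87. Inhba (0.71), Il1rn, the interleukin 1 receptor antagonist (0.67), and Tnfsf15 (0.63) were higher, as they were without LPS (0.80, 0.81 and 0.71). Chosen after their values were seen, the best known LPS cytokines were close: Tnf differed by -0.14, Il1b by -0.03 and Il6 by -0.10.

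For 21 chemokines the median was -0.22 with 18 below 0, and -0.0932 with both trends taken out; without LPS it was 0.26. At least 1.5-fold, 4 of the 21 (19.0%) were lower and 1 (4.76%) higher, against 6.07% and 4.69% of all genes. After Ppbp and Pf4, Cxcl1, a neutrophil attractant, read 6.06, 10.26, 6.55 and 9.51, a difference of -0.75 with LPS and 0.49 without. Ccl6 was at -0.68, and Cxcl11, an interferon-induced ligand of Cxcr3, at 0.59. Cxcl10 and Ccl5, named after their values were seen, differed by -0.01 and -0.11.

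Of 25 immediate early genes 16 were below 0 with a median of -0.20, which became 0.0106 with both trends taken out. Myc was at -0.70, Junb at -0.64 and Maff at -0.55, while Dusp16, a MAP kinase phosphatase, was 0.65 higher. Genes of NF-kB and its feedback, 18 in number, had a median of 0.18. Malt1, a paracaspase, was 0.75 higher, and the deubiquitinase Tnfaip3 0.55 higher. The TLR4 pathway components, 20 genes, had a median of 0.205 with 16 above 0, and Ikbke, a kinase of the interferon arm, was highest at 0.73. Tlr4 itself, named after its value was seen, differed by 0.04.

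Over 23 inflammatory enzymes and effectors the median was 0.09, and 0.2299 with both trends taken out. Without LPS it was 0.34, with 19 above 0 and 4 below. Slc7a2, which imports arginine, read 9.43 in WT and 10.46, 1.03 higher, and Nos2, which makes nitric oxide from arginine, read 7.25 and 8.07, 0.82 higher. Without LPS they were 0.95 and 1.22 higher. Cfb, complement factor B, was 1.08 higher with LPS and 1.27 without.

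Of the Bcl-2 family, Bid was the only BH3-only gene of 10 that differed by 1.5-fold; Bad was at -0.49 and Pmaip1, the gene of Noxa, at -0.25. The 7 multidomain members lay between -0.39 for Bok and 0.32 for Mcl1. Among 18 death receptor, caspase and adaptor genes, 12 were above 0 with a median of 0.205. Casp2, an initiator caspase, was 0.65 higher with LPS and 0.55 without, Apaf1, the apoptosome scaffold, 0.60 and 0.20, and Casp8, which cleaves Bid, 0.49 and 0.16. With both trends taken out, Apaf1 was 0.3676 higher with LPS. Of the 11 inflammasome and NOD receptor genes, the median was 0.41, with 0.31 without LPS. Nod1, a sensor of bacterial peptidoglycan, read 6.19 and 7.10, 0.91 higher, Naip2 0.84 and Nod2 0.82. Pycard, the adaptor ASC, was at -0.91 and the only member at least 1.5-fold lower.

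**Figure D3:**
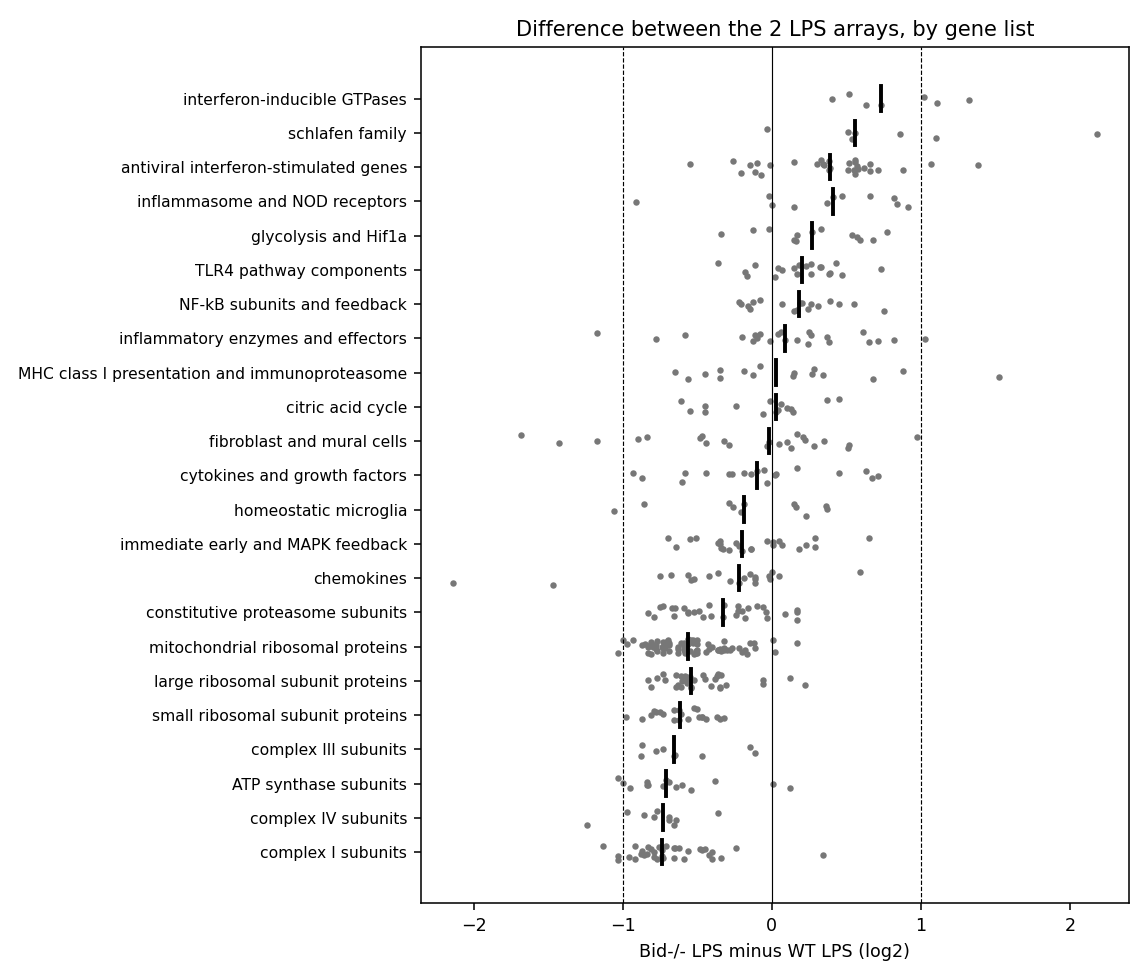
Each point is a gene and each black bar the median of its list, drawn as the array labelled Bid-/- minus the WT array, both with LPS, in log2; dashed lines mark a 2-fold difference. Lists of interferon-driven genes are at the top, with medians up to 0.73, and subunits of the respiratory chain and ribosome are at the bottom, with medians down to -0.74.

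With LPS, nuclear genes for oxidative phosphorylation read lower under the Bid-/- label. Of 73 subunit genes compared, 69 were below 0 and 4 above, with a median of -0.71, and 53 (72.6%) were at least 1.5-fold lower against 6.07% of all genes, 6 of them at least 2-fold. Without LPS the median was -0.08. The medians of the list were 8.19 on the WT control array, 8.46 with LPS, 8.09 on the control labelled Bid-/- and 7.70 with LPS. The WT median was higher with LPS than without, and the median under the Bid-/- label was lower. By complex the medians were -0.74 for 35 subunits of complex I, -0.605 for 4 of complex II, -0.66 for 9 of complex III, -0.73 for 10 of complex IV and -0.71 for 15 of ATP synthase.

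In complex I, Ndufb9 read 7.41, 7.90, 7.40 and 6.77, a difference of -1.13, and Ndufb7 and Ndufb8 each stood at -1.03. Uqcrq of complex III (-0.88), Cox6a1 and Cox5a of complex IV (-1.24 and -0.97) and Atp5e and Atp5k of ATP synthase (-1.03 and -1.0) had the largest differences of their complexes. The 4 genes above 0, named after their values were seen, were Ndufs1, an iron-sulfur subunit of complex I (0.34), Sdha, the flavoprotein of complex II (0.16), and Atp5b and Atp5a1, the catalytic and alpha subunits of ATP synthase (0.12 and 0.01). The mitochondrially encoded ND3 and COX2 were at -0.11 and -0.09, and above 0 with both trends taken out, at 0.0083 and 0.1373. The 15 citric acid cycle genes split 8 above and 7 below 0, with a median of 0.03, and the median was below 0 under both trend settings; Suclg1 (-0.61) and Idh3g (-0.55) were lower and Suclg2 (0.45) was higher. Mitochondrial import genes were at a median of -0.34 over 27 genes, with Tomm20, an import receptor, at -0.90.

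Ribosomal protein genes were lower as well. Of 55 cytosolic ones, 53 were below 0, with a median of -0.56, and 23 (41.8%) were at least 1.5-fold lower, against 6.07% of all genes; without LPS the median was -0.03. Rps27l was at -0.98, Rps19 at -0.87 and Rpl34 at -0.83. Of 74 mitochondrial ones, 71 were below 0 with a median of -0.56, and 35 (47.3%) were at least 1.5-fold lower. Mrpl23 was at -1.03. Translation factors (26 genes) had a median of -0.06 that was 0.0713 under quantile normalization, and Eif3i stood at -0.88. The 31 constitutive proteasome genes had a median of -0.33 with 27 below 0, Psmb3 at -0.83. The 13 glycolysis genes, in contrast, had a median of 0.27 with 10 above 0, and without LPS 0.25 with 12 above 0. Pfkfb3, which raises glycolytic flux, was 0.77 higher and Hk2 0.68 higher, with 0.54 and 0.25 without LPS.

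Other lists of cell machinery had medians between -0.09 and 0.085 as deposited. The 26 genes of the proton pump and lysosome had a median of -0.09, or 0.02 under quantile normalization. Within the proton pump, Atp6v0e (-0.89), Atp6v1e1 (-0.76), Atp6v1g1 (-0.69) and Atp6v1f (-0.64) were lower, while Atp6v1c1 was 0.60 higher. For 12 genes of cholesterol synthesis and efflux the median was -0.025; the exporter Abca1 was 0.68 higher and Fdps, a synthesis enzyme, was at -0.67. Over 14 heat shock and unfolded protein genes the median was 0.085, and 0.2295 with both trends taken out. Over 12 cell cycle genes it was -0.075, and -0.22 with the floor 1 higher, with no gene of either list 1.5-fold apart. Herpud1, of endoplasmic reticulum degradation, was at -0.52 and Plk1, a mitotic kinase, at -0.56. Of the complement genes, C2 was 0.78 higher, and C1qb, C1qa and C1qc, whose products start the classical pathway, were at -0.53, -0.40 and -0.39; with both trends taken out, C1qa and C1qc were at -0.1446 and -0.1338.

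**Figure D4:**
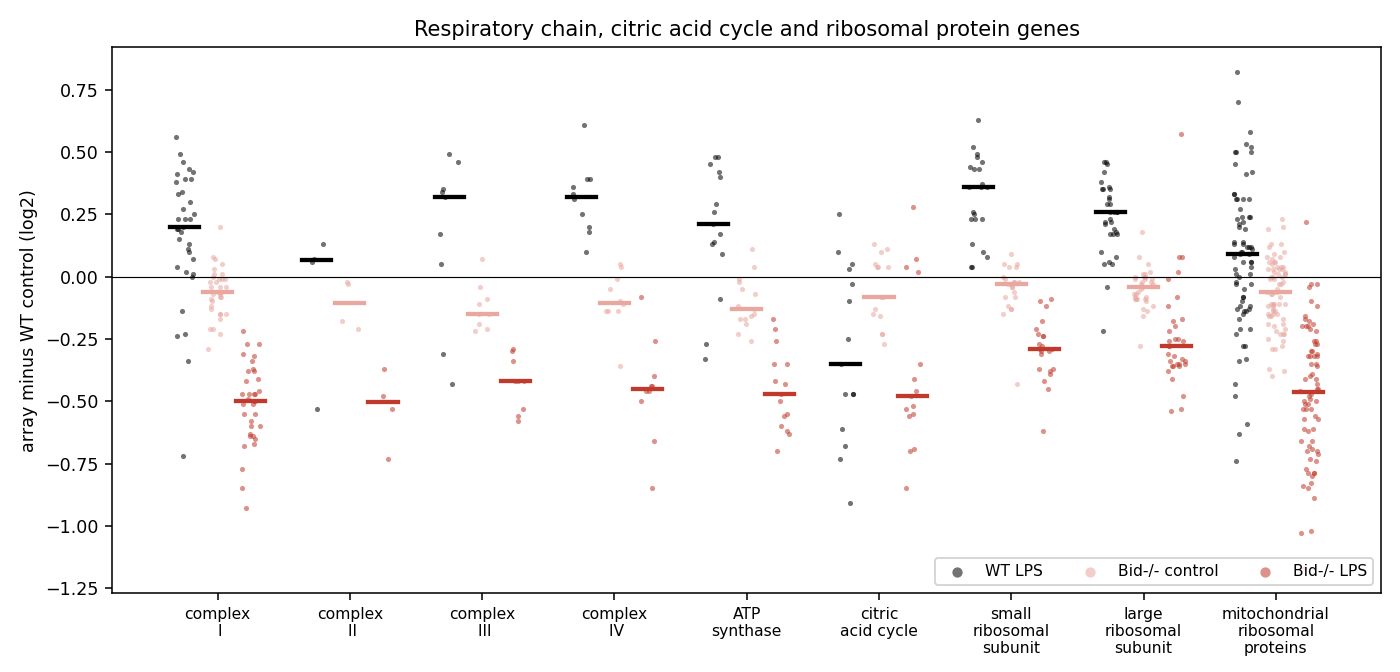
Points are genes, drawn as each array minus the WT control array in log2, and bars are list medians. For the respiratory complexes, ATP synthase and the ribosomal proteins, the WT LPS bars lie above 0 and the bars labelled Bid-/- LPS lie below the control labelled Bid-/-, while the citric acid cycle lies below 0 on both LPS arrays.

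The difference moved with gene length. The genes were put in 10 classes of nearly equal size by genomic span, and the median difference went from -0.19 in the shortest class, 53 to 3347 bases, to 0.22 in the longest. In the shortest class, 188 of 1103 genes (17.0%) were at least 1.5-fold lower and 22 higher, and in the longest, 114 of 1102 (10.3%) were higher and 10 (0.907%) lower. On the untreated pair the class medians ran only from -0.03 to 0.05. The 54 lower genes had a median span of 4719 bases, the 36 higher ones 21202.5 and all genes 20947. Relative to the median of each gene's own class, oxidative phosphorylation stood at -0.59 and 69 of 73 genes lay below their class, cytosolic ribosomal proteins stood at -0.38, and antiviral interferon-stimulated genes at 0.41. Respiratory subunits in the longer part of the genes, with a span above 20947 bases, had a median of -0.425 over 10 genes, and the shorter ones -0.74 over 63. Antiviral genes had 0.335 over 18 shorter genes and 0.55 over 13 longer ones. Whether length, RNA quality or labelling has a part in these differences was not tested.

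**Figure D5:**
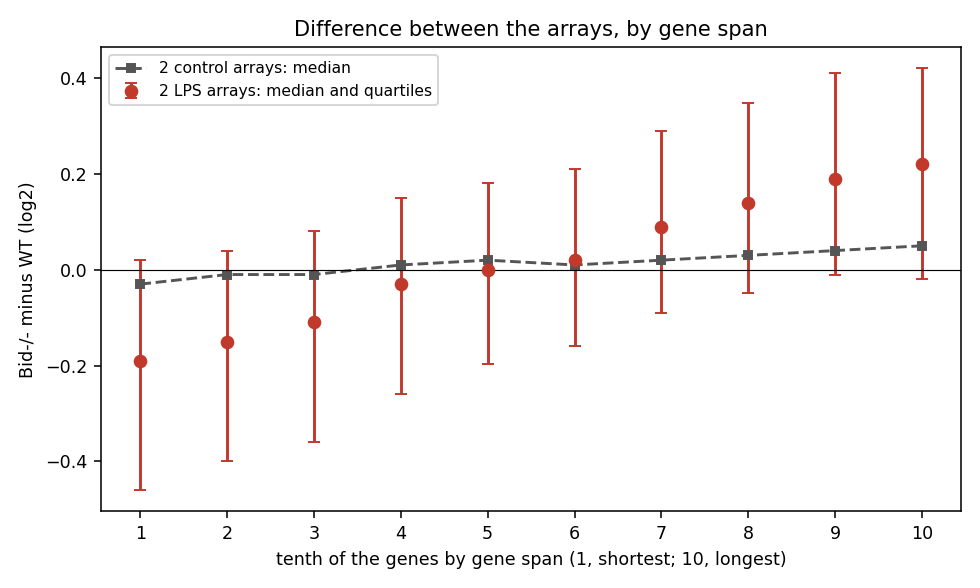
Median difference and quartiles with LPS (circles and bars), and the median without LPS (squares), over 10 classes of genes ordered by genomic span, in log2. With LPS the median goes from -0.19 to 0.22 across the classes, and without LPS it stays between -0.03 and 0.05.

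Genes with a microRNA name were read by 95 probe sets at the floor. Their median difference was 0.08 with LPS and -0.07 without, and none reached 2-fold; 6 (6.32%) were at least 1.5-fold higher and 2 (2.11%) lower, against 4.69% and 6.07% of all genes. A probe set of this kind on a total RNA array does not separate a mature microRNA from its precursor. The neighbouring genes Mir99b, Mirlet7e and Mir125a on chromosome 17, chosen after their values were seen, were 0.70, 0.88 and 0.96 higher, and -0.07, -0.11 and -0.16 without LPS. Mir125a read 5.45, 5.48, 5.29 and 6.44, and the others read 6.75 against 7.45 (Mir99b) and 6.47 against 7.35 (Mirlet7e) with LPS. Mir342 (0.77) and Mir3068 (0.72) were also higher, and Mir18 lower at -0.66. The mature 5p forms from RefSeq, GRCm38.p6, with the seed, bases 2 to 8, in capitals, are printed because these neighbours have 3 different seeds.
miR-99b-5p, chr17:17830194-17830215, plus strand: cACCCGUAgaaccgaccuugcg
let-7e-5p, chr17:17830366-17830387, plus strand: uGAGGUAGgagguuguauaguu
miR-125a-5p, chr17:17830817-17830840, plus strand: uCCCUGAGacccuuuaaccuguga

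The cell labels were set against marker genes. Of 15 homeostatic microglia markers measured, 11 were at the floor, and P2ry12, Siglech, Gpr34 and Slc2a5 were not, on either LPS array. Fcrls read 11.53, 11.01, 10.59 and 9.95, -1.06 with LPS and -0.94 without, and Trem2, a lipid-sensing receptor, read 8.18, 8.29, 8.34 and 7.43, -0.86 with LPS. Of the 11 markers, 6 were below 0 and 5 above, with P2ry13 (0.37) and Csf1r (0.36) highest. The list median was -0.19, but -0.01 without a floor and -0.0604 with both trends taken out. Of the C-type lectins and scavenger receptors (15 genes) 10 were below 0, with a median of -0.11 that turned to 0.0075 under quantile normalization, and Clec4a2 (-1.25) and Cd209f (-1.11) were at least 2-fold lower. Among 11 monocyte and border macrophage markers, 5 reached the floor, with a median of -0.30, or -0.05 without a floor. Pf4 (-1.47), Ms4a7 (-0.49) and Folr2 (-0.30) were below 0, and F13a1 (0.73) and Itga4 (0.42) above. Of the neutrophil markers 0 of 10 reached the floor, of lymphocyte markers 2 of 10, of neuron markers 1 of 10 and of endothelial markers 4 of 8. Astrocyte and oligodendrocyte lineage markers reached it in 7 of 10 each, with astrocyte medians between 4.27 and 4.46 over the arrays.

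Fibroblast and mural cell markers, with 23 compared, read medians of 5.10, 5.89, 6.02 and 5.63 on the 4 arrays in the same order. Their median difference was -0.02 with LPS and 0.59 without, and it was 0.09 when the floor was raised by 1. Tagln, Timp1 and Sfrp4, which reached the floor only on the WT LPS array, were at least 2-fold lower with LPS. Acta2, smooth muscle actin, was at -0.90, whereas Thbs1 was 0.97 higher. Timp1, an inhibitor of matrix proteases, read 4.22, 6.80, 6.03 and 5.63, -1.17 with LPS and 1.81 without. Lum, Cnn1 and Postn did not reach the floor. The share of such cells on each array, and its part in these differences, was not tested.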

How the data were processed

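RNA of 4 groups of cells was measured on 1 Affymetrix Mouse Gene 1.0 ST array each. The authors deposited 1 table of normalised values, taken here as log2 expression from their range of 1.4 to 13.5; no log base is stated there, and all folds depend on this reading. Per the submitters' processing notes, the tools were RMA, Affymetrix Expression Console and Partek 6.2, without the role of each. The arrays' medians run from 4.24 to 4.28; the number of arrays limits the precision.

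By the platform annotation, 21789 probe sets had 1 symbol, 1621 had several and 5534 had none; 21698 had a RefSeq identifier (GRCm38.p6). For 999 genes with several probe sets the one highest on average over the 4 arrays stood for the gene. Named genes are Bid, the 15 highest and lowest 2-fold genes, up to 5 members of each list by size of difference, and genes opposite on the 2 pairs. The 47 gene lists and the members were chosen with earlier results of these data known. Computations used Python 3.11.15, pandas 2.3.3 and statsmodels 0.14.6 and were tested on simulated data. The changes planted there were larger than 2-fold and in genes well above the floor, so changes near either limit were not checked. Alternatives were the floor, quantile normalization, loess trends with intensity and gene span (span 0.4), the probe set rule, the small RNA genes and a 1.5-fold threshold.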

Additional observations from a re-analysis of the deposited data

Results flagged for a closer look

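For 4 genes the difference between the labels ran at least 1.5-fold one way without LPS and at least 1.5-fold the other way with LPS, and this change of direction was not tested. Timp1 was 1.81 higher without LPS and at -1.17 with LPS, so the LPS difference less the untreated one was -2.98. For Tagln, at 0.66 and -1.43, this was -2.09. S100a6, a calcium-binding protein, read 4.47, 5.54, 5.20 and 4.70 on WT control, WT LPS, control labelled Bid-/- and LPS labelled Bid-/-, giving -1.57, and Cnn3, a calponin, read 5.09, 5.63, 5.69 and 5.02, giving -1.21. In each of the 4 genes the WT value is higher with LPS than without and the value labelled Bid-/- is lower.

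Probe sets with no gene symbol are outside the comparison by gene. Of 2077 at the floor, 80 (3.85%) were at least 2-fold higher on the LPS array labelled Bid-/- and 34 (1.64%) lower, with a median difference of -0.08. On the untreated pair 3 were at least 2-fold higher and 4 lower. Of 819 probe sets with several symbols, 2 (0.244%) were at least 2-fold higher with LPS and 14 (1.71%) lower. Among the genes compared, 0.326% were at least 2-fold higher and 0.489% lower.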

How the results depend on the processing

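The counts at least 2-fold apart were 36 and 54 as deposited, with 40.0% higher. Over the other settings at that threshold they ran from 31 to 43 higher and from 39 to 71 lower, and the share higher from 32.4% to 46.7%. At 1.5-fold they were 518 and 670. For 234 named genes, wherever one of the 7 alternatives gave a value, 1589 values stayed within 0.21 and 21 moved further. None of those at least 1.5-fold apart as deposited changed sign; 9 smaller ones did, all of 0.15 or less in size. For 44 list medians, 273 values stayed within 0.1, 32 moved further and 3, of medians at least 0.1 from 0, reversed. Counting medians nearer 0, 9 lists changed sign under some setting; beside the 3, these were complement, citric acid cycle, fibroblast and mural markers, translation factors (0.0713) and proton pump and lysosome (0.02) under quantile normalization, and multidomain Bcl-2 genes (0.04 to -0.1075 with both trends subtracted). With the loess trends on intensity and on span subtracted, the cytokine median was 0.0954 and the immediate early median 0.0106 (both reversed), chemokines -0.0932, oxidative phosphorylation -0.6072 and cytosolic ribosomal proteins -0.3792. Under quantile normalization the C-type lectin median was 0.0075 (reversed), antiviral genes 0.55 and cytosolic ribosomal proteins -0.4275. With the floor 1 higher, fibroblast and mural markers were at 0.09. The causes were not tested. No paired analysis was possible because each group has 1 array, and no replicate could be left out. Probe signal over background was not used here, so values near the floor are the least certain.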
